A study of Mus musculus with 12 samples.

Results

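The genes described here make, sense and move cholesterol and fatty acids. They are the 33 symbols of a fixed list: 18 enzymes of cholesterol synthesis, 5 regulators of the SREBP pathway, 3 sterol transport proteins and 7 enzymes of fatty acid synthesis. They were followed on Affymetrix arrays of mouse embryonic stem cells, pluripotent cells grown from the early embryo. A member was any probe set annotated to 1 of these symbols alone. This gave 74 probe sets for 32 of the 33 genes, out of 18193 genes named on the array, and Acat2 matched none. All 32 passed the filter on dim genes and were among the 13811 genes tested.

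The cells were Tcf3-/- or Tcf3+/+. Tcf3 is the older name of Tcf7l1, a DNA-binding protein of the Tcf/Lef family that partners beta-catenin in Wnt signalling. The groups were Tcf3-/- with Wnt3a, Tcf3-/- in control medium, Tcf3+/+ with Wnt3a and Tcf3+/+ in control medium, with 3 arrays each and 12 in all. Wnt3a was recombinant protein at 50 ng/ml for 24 h. All 4 groups grew without feeder cells on gelatin in medium with fetal bovine serum and Lif. How the Tcf3 allele was made, and whether each genotype is 1 clone, is not stated in the labels. The labels number the replicates without naming separate cultures, and every p-value therefore rests on array-to-array spread that may be technical.

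Cells build cholesterol from acetyl-CoA through mevalonate, farnesyl pyrophosphate, squalene and lanosterol, and fatty acids from acetyl-CoA through malonyl-CoA. Both routes are driven by the SREBP transcription factors, encoded by Srebf1 and Srebf2. When membrane sterol is low, Scap escorts SREBP from the endoplasmic reticulum to the Golgi, where it is cut and released to the nucleus, and when sterol is high Insig1 and Insig2 hold Scap back. Because SREBP acts on most genes of the pathway at the same time, and on Insig1 itself, these genes often move together.

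SREBP binds sterol regulatory elements, usually beside sites for NF-Y (CCAAT) and Sp1 (GGGCGG). The promoters of 4 members are shown because they carry the letters searched or because the genes moved most. Of the 26 members with a promoter sequence, Hmgcs1 was the only one whose window held the letters searched for the sterol regulatory element. Other spellings of the element were not searched. Ebp and Abca1 were among the genes whose Wnt3a response differed between genotypes, and Hsd17b7 had the largest fall in Tcf3-/- cells, and these 3 were chosen after their values were seen. Sequences are from RefSeq, build GRCm38.p6, 250 bases before to 50 after the annotated start, 5′ to 3′ on the gene's strand, and capitals mark matches on either strand to TCACNCCAC (sterol regulatory element), CCAAT (NF-Y), CTTTGNT (Tcf/Lef) and CACGTG (E-box).
Hmgcs1, chr13:119690101-119690400, plus strand.
Hmgcs1: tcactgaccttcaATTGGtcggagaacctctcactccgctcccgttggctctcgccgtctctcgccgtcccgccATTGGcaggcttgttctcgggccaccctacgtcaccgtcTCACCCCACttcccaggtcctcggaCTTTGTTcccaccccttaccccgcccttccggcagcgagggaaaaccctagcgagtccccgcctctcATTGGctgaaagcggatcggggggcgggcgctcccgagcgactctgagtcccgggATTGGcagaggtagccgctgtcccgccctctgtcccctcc
Ebp, chrX:8193463-8193762, minus strand.
Ebp: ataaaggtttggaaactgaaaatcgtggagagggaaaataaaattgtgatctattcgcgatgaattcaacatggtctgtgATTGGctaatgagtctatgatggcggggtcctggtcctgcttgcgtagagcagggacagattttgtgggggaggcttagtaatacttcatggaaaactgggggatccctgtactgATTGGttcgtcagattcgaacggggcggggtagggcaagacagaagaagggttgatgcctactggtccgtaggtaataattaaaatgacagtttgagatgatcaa
Abca1, chr4:53159846-53160145, minus strand.
Abca1: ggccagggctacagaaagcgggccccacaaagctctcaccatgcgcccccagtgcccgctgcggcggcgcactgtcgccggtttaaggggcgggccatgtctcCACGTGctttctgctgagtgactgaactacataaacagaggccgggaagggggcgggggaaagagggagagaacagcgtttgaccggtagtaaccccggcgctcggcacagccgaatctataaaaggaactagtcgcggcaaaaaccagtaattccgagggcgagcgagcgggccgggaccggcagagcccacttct
Hsd17b7, chr1:169969156-169969455, minus strand.
Hsd17b7: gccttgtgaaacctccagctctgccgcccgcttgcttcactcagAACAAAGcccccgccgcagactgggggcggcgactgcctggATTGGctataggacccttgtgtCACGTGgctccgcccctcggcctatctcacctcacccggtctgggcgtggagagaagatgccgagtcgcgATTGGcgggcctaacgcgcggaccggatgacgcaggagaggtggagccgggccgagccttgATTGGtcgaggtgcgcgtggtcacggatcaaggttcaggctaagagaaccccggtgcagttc

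In Hmgcs1 the element read TCACCCCAC and began at position -137 from the start, with 4 CCAAT matches around it and a Tcf/Lef match at -112. Ebp held 2 CCAAT matches, Hsd17b7 held 3 with an E-box and a Tcf/Lef match, and Abca1 held an E-box alone among the marked motifs. The window of Elovl6 held none of the 5 motifs. Of the 26 members in the promoter table, 21 (80.8%) held CCAAT, against 42.4% of the tested genes in that table, and 22 (84.6%) held GGGCGG, which is not marked above, against 65.6%. The E-box stood in 6 (23.1%, against 11.3%), the Tcf/Lef letters in 4 (15.4%, against 16.9%) and the sterol regulatory element in 1 (3.85%, against 1.47%). CCAAT was in 14 cholesterol synthesis genes, 4 regulators, 3 fatty acid genes and none of the transport genes. These are matches of letters in a fixed window, on both strands, and not measured binding.

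Values below are log2 of the deposited intensity, changes are differences of group means on that scale, SE is their standard error from limma over 12 arrays, and adjusted p is limma's, by the Benjamini-Hochberg method over all 13811 genes. A gene passed where adjusted p was below 0.05. Each gene is given by its brightest probe set. Array medians ran between intensities of 68.3 and 73.4. Tcf7l1 averaged 9.47 ± 0.11 in Tcf3-/- and 10.85 ± 0.07 in Tcf3+/+ cells in control medium (SD, n = 3 each), and 9.10 ± 0.18 and 10.37 ± 0.15 with Wnt3a, so it was lower in Tcf3-/- cells by 2.60-fold and 2.42-fold (adjusted p = 1.17e-06 and 7.75e-06). The labels do not say whether its probes lie in the deleted stretch. All 10 embryonic stem cell markers were above the floor for dim genes. Their summed intensity in control medium was 100725 to 103245 on Tcf3-/- arrays and 74691 to 81572 on Tcf3+/+ arrays. With Wnt3a it was 105054 to 110782 on Tcf3-/- arrays and 90377 to 98467 on Tcf3+/+ arrays. Of 10 fibroblast markers 7 were above that floor on average, with Col3a1, Lum and Prrx1 below it. The sum of the 10 in control medium was 617 to 653 on Tcf3-/- arrays and 639 to 738 on Tcf3+/+ arrays. With Wnt3a it was 534 to 558 on Tcf3-/- arrays and 595 to 599 on Tcf3+/+ arrays. Summed neural markers in control medium were 931 to 1126 on Tcf3-/- arrays and 1434 to 1587 on Tcf3+/+ arrays. With Wnt3a they were 718 to 754 on Tcf3-/- arrays and 923 to 1180 on Tcf3+/+ arrays. Single markers did not all follow the sums. In control medium Nes averaged 8.28 in Tcf3-/- and 9.62 in Tcf3+/+ cells and Neurod1 8.67 and 8.82. Pax6 (7.78 and 7.43) and Sox1 (5.99 and 5.83) went the other way. Of the neural markers 1 passed there, as lower in Tcf3-/- cells. Of the fibroblast markers 2 passed as higher and 3 as lower. These sums thus differed between media as well as genotypes, and the part of any marker list in the results was not tested. In control medium, array 2 of the Tcf3-/- cells stood apart by a summed endoderm marker intensity of 2413, against 637 and 1111 on its fellow arrays. Spiked dap RNA, a bacterial control added before labelling, read 11.07 to 11.33 on Wnt3a arrays and 4.04 to 4.15 on control arrays, so Wnt3a and sample preparation cannot be told apart. Actin probe sets at the 3′ end exceeded those at the 5′ end, a sign of RNA integrity, by an amount that was 0.31 to 0.41 on Tcf3-/- arrays and 0.18 to 0.27 on Tcf3+/+ arrays, and its part in the genotype differences was not tested. In RNA from whole cultures, fewer cells of a type and less RNA per cell cannot be told apart.

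Of the 32 genes, 9 fell and 5 rose in Tcf3-/- relative to Tcf3+/+ cells in control medium. Those that fell were the synthesis enzymes Hsd17b7, Sqle, Sc5d, Fdps, Cyp51 and Hmgcs1, the regulator Scap, the transport protein Stard4 and fatty acid synthase, Fasn. Those that rose were the synthesis enzyme Ebp, the transport protein Abca1 and the fatty acid genes Elovl6, Acss2 and Acly. With Wnt3a in Tcf3+/+ cells 11 genes rose and 3 fell, and with Wnt3a in Tcf3-/- cells 4 rose and 2 fell.

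The 14 genes that passed in control medium between the genotypes are 43.8% of the 32, against 42.2% of all genes tested (19.9% higher and 22.3% lower), so the share of these genes that changed was close to the background. Their median change was -0.12, against 0.01 over all genes. The sign was less even than the calls in this comparison: 23 of 32 changes were negative, 15 of 17 among cholesterol synthesis genes. Between genotypes with Wnt3a the signs were even, with 16 negative and 16 positive (8 and 9 in cholesterol synthesis). For Wnt3a in Tcf3-/- cells, which shares the Tcf3-/- control arrays, 25 of 32 changes were positive, 15 of 17 in cholesterol synthesis. For Wnt3a in Tcf3+/+ cells 22 were positive, 11 of them in cholesterol synthesis. Signs were not counted over all genes. The arrays of the genotypes did not overlap for 22 of the 32 in control medium, against 54.1% of all genes tested, and for 14 with Wnt3a, against 42.6%. Wnt3a and control arrays did not overlap for 18 in Tcf3+/+ cells, against 52.8%, and for 9 in Tcf3-/- cells, against 43.8%. Where probe sets are counted below, the share of all 45037 that passed was 23.2% and 14.4% between genotypes in control and Wnt3a medium, 31.4% and 22.1% for Wnt3a in Tcf3+/+ and Tcf3-/- cells, and 1.87% for the difference of the responses. In Wnt3a medium 4 genes were higher and 5 lower in Tcf3-/- cells, 28.1% of the 32 against 28.0% of all genes (13.2% higher, 14.7% lower), with a median change of -0.02. Wnt3a in Tcf3+/+ cells changed 43.8% of the 32 against 41.5% of all genes (18.9% higher, 22.6% lower), with a median of 0.07. Wnt3a in Tcf3-/- cells changed 18.8% against 28.0% (13.3% higher, 14.7% lower), with a median of 0.12. The genotype comparison in control medium and the Wnt3a comparison in Tcf3+/+ cells share the Tcf3+/+ control arrays, and likewise each other pair of neighbouring comparisons shares a group.

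**Figure D1:**
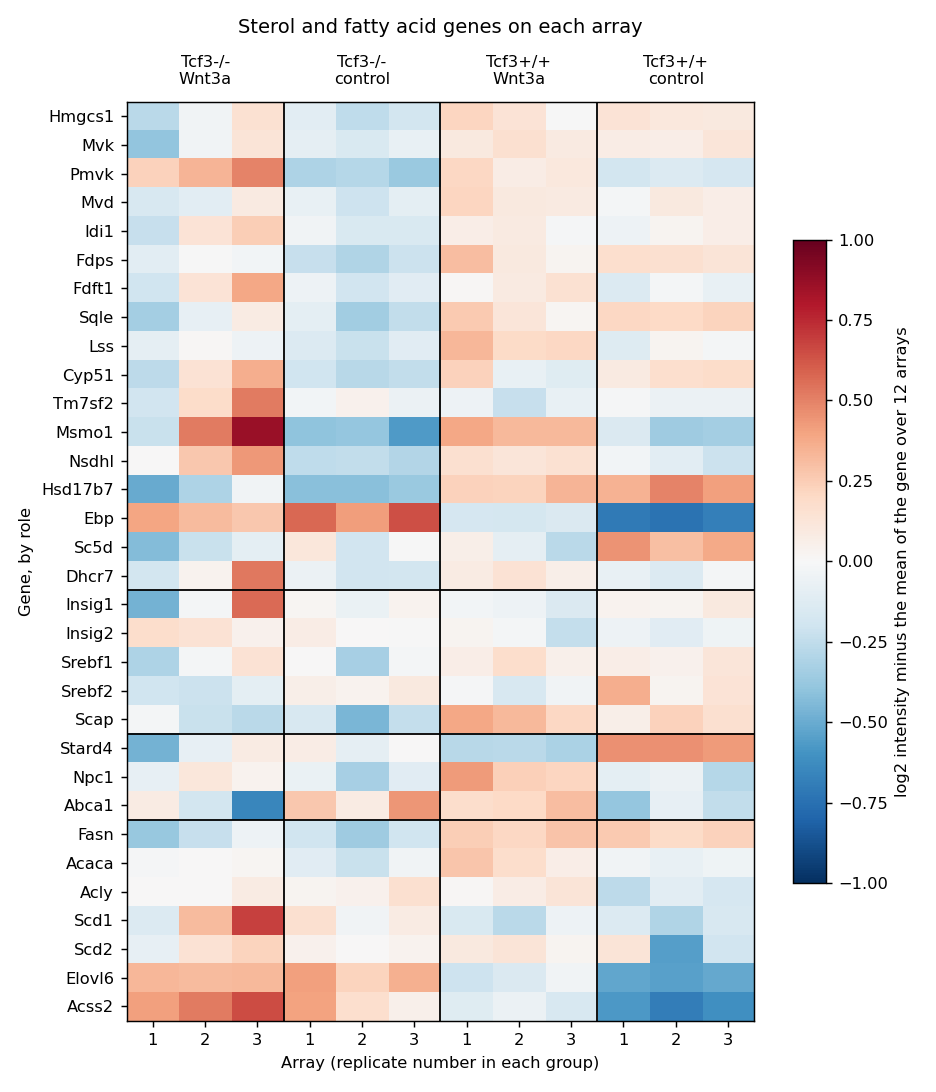
The 32 genes (rows, grouped by role) on the 12 arrays (columns), coloured by log2 intensity minus the gene's mean over all arrays. Ebp, Elovl6 and Acss2 are lowest on the 3 Tcf3+/+ control arrays, and in the Tcf3-/- Wnt3a group array 1 is pale or blue and array 3 red for most cholesterol synthesis genes.

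Among the early enzymes, Hmgcs1 condenses acetyl-CoA units into HMG-CoA. It measured 12.27, 12.12 and 12.19 on Tcf3-/- control arrays and 12.52, 12.48 and 12.48 on Tcf3+/+ control arrays, a change of -0.30 (SE 0.10, adjusted p = 0.0261). The groups did not overlap, yet the call was lost without any of the 3 Tcf3+/+ control arrays or without Tcf3-/- control array 2 or 3 (adjusted p between 0.0518 and 0.0857), and with the mean of its probe sets (adjusted p = 0.149). With Wnt3a only 1 of the 5 probe sets of Hmgcs1 passed, a dimmer one. It rose by 0.33 in Tcf3-/- cells (adjusted p = 0.0202) and by 0.41 in Tcf3+/+ cells (adjusted p = 0.00409). Fdps, which makes farnesyl pyrophosphate, read 11.74 ± 0.05 in Tcf3-/- and 12.14 ± 0.02 in Tcf3+/+ control cells (SD, n = 3 each), lower by 1.32-fold (adjusted p = 0.000785), with a change of -0.25 rather than -0.40 for the mean of its probe sets (adjusted p = 0.00885). Sqle, the squalene epoxidase, averaged 10.88 ± 0.13 and 11.32 ± 0.01 in the same groups and was lower by 1.36-fold (adjusted p = 0.00448). Mvk, Mvd and Idi1, the other mevalonate pathway enzymes beside Pmvk, and Fdft1, which makes squalene, did not pass by their brightest probe sets in any of the 4 comparisons. A dimmer probe set of Fdft1 rose with Wnt3a by 0.35 in Tcf3-/- cells (adjusted p = 0.0256) and by 0.46 in Tcf3+/+ cells (adjusted p = 0.00348), and with the mean of all probe sets Fdft1 was called higher in both. The dimmer probe set of Mvk was lower in Tcf3-/- control cells, at -0.20 (adjusted p = 0.0234), and rose with Wnt3a in Tcf3-/- cells by 0.21 (adjusted p = 0.0236).

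Pmvk, phosphomevalonate kinase, passed with Wnt3a in both genotypes. It measured 9.61, 9.72 and 9.88 on Tcf3-/- Wnt3a arrays, 9.08, 9.10 and 9.01 on Tcf3-/- control arrays, 9.59, 9.46 and 9.49 on Tcf3+/+ Wnt3a arrays and 9.20, 9.24 and 9.22 on Tcf3+/+ control arrays. Wnt3a arrays were above control arrays in both genotypes with no overlap. It rose with Wnt3a by 0.67 in Tcf3-/- cells (SE 0.07, adjusted p = 0.000134) and by 0.29 in Tcf3+/+ cells (SE 0.07, adjusted p = 0.00680). The difference between these 2 responses, 0.38, did not pass (adjusted p = 0.0577), and it passed without array 1 of the Tcf3-/- or of the Tcf3+/+ Wnt3a group (adjusted p = 0.0302 and 0.0391). Between genotypes with Wnt3a it was higher in Tcf3-/- cells by 0.22 (adjusted p = 0.0361), a call lost without Tcf3+/+ control array 3 or without array 2 or 3 of either Wnt3a group (adjusted p between 0.0548 and 0.130).

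Lanosterol is formed by Lss and then loses its extra methyl groups through Cyp51, Msmo1, Nsdhl and Hsd17b7, in a run of steps that includes the sterol reductase Tm7sf2. Msmo1, the C4-methyl sterol oxidase, gave 10.20, 10.94 and 11.29 on Tcf3-/- Wnt3a arrays and 10.02, 10.03 and 9.86 on Tcf3-/- control arrays. It gave 10.81, 10.74 and 10.75 on Tcf3+/+ Wnt3a arrays and 10.28, 10.07 and 10.08 on Tcf3+/+ control arrays. Wnt3a arrays were higher in both genotypes without overlap, and the 3 Tcf3-/- Wnt3a arrays differed among themselves far more than those of any other group. The rise was 0.84 in Tcf3-/- cells (SE 0.20, adjusted p = 0.00942, and 0.53 with the mean of its probe sets) and 0.62 in Tcf3+/+ cells (SE 0.20, adjusted p = 0.0262). The second call was lost without Tcf3+/+ control array 2 or 3 or any Tcf3+/+ Wnt3a array (adjusted p between 0.0561 and 0.0750).

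Nsdhl, which acts beside Msmo1 in removing the C4 methyl groups, followed it. Its levels were 10.30, 10.57 and 10.73 on Tcf3-/- Wnt3a arrays, 10.04, 10.05 and 10.00 on Tcf3-/- control arrays, 10.45, 10.41 and 10.44 on Tcf3+/+ Wnt3a arrays and 10.27, 10.19 and 10.08 on Tcf3+/+ control arrays. It rose by 0.50 in Tcf3-/- cells (SE 0.09, adjusted p = 0.00260), and its change of 0.25 in Tcf3+/+ cells passed narrowly (adjusted p = 0.0449). That call was lost without any of 9 arrays (all but Tcf3+/+ control array 1 and Tcf3-/- Wnt3a arrays 1 and 3), with adjusted p between 0.0560 and 0.158. Lss was higher with Wnt3a in Tcf3+/+ cells by 0.28 (adjusted p = 0.00525) and lower in Tcf3-/- than in Tcf3+/+ cells with Wnt3a, at -0.28 (adjusted p = 0.00755). Only 1 of its 3 probe sets carried these calls, and both were lost with their mean (0.08 and -0.06, adjusted p = 0.615 and 0.721).

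Hsd17b7, the 3-ketosteroid reductase of the demethylation complex, had the largest fall of the 32 between genotypes. It measured 7.60, 7.79 and 8.07 on Tcf3-/- Wnt3a arrays and 7.69, 7.69 and 7.73 on Tcf3-/- control arrays. In Tcf3+/+ cells it measured 8.34, 8.33 and 8.45 with Wnt3a and 8.45, 8.60 and 8.51 in control medium. Every Tcf3-/- array was below every Tcf3+/+ array. The change was -0.82 in control medium (SE 0.10, adjusted p = 3.84e-05) and -0.55 with Wnt3a (SE 0.10, adjusted p = 0.00169). Its 4 probe sets did not measure alike: the others changed by -0.29, -0.29 and 0.34 in control medium without passing, and their mean changed by -0.27 there (adjusted p = 0.0184) and by -0.21 with Wnt3a (adjusted p = 0.0760). With Wnt3a itself, another probe set fell by 0.61 in Tcf3+/+ and by 0.51 in Tcf3-/- cells, where the brightest did not pass.

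Cyp51, the lanosterol demethylase, averaged 9.33 ± 0.04 in Tcf3-/- and 9.72 ± 0.05 in Tcf3+/+ control cells (SD, n = 3 each). The change of -0.39 passed (adjusted p = 0.0364) and was lost without any of the 6 control arrays (adjusted p between 0.0597 and 0.0969), with the mean of its probe sets (0.0587) and with median centring (0.0538). With Wnt3a, its Tcf3-/- arrays read 9.31, 9.72 and 9.93, against 9.37, 9.29 and 9.32 in control medium, so that array 1 lay at the level of the Tcf3-/- control arrays and array 3 well above it. Tcf3+/+ arrays read 9.80, 9.50 and 9.45 with Wnt3a and 9.66, 9.74 and 9.75 in control medium. The Wnt3a change in Tcf3-/- cells, 0.32, did not pass (adjusted p = 0.0956). Tm7sf2, a sterol reductase, read 8.38, 8.76 and 9.09 on Tcf3-/- Wnt3a arrays, 8.54, 8.62 and 8.52 on Tcf3-/- control arrays, 8.52, 8.34 and 8.50 on Tcf3+/+ Wnt3a arrays and 8.56, 8.51 and 8.51 on Tcf3+/+ control arrays. Array 3 of the first group stood highest, and the difference of 0.29 between genotypes with Wnt3a did not pass (adjusted p = 0.129). Dhcr7, which completes cholesterol, read 8.82, 9.03 and 9.52 on Tcf3-/- Wnt3a arrays, 8.94, 8.81 and 8.82 on Tcf3-/- control arrays, 9.08, 9.15 and 9.06 on Tcf3+/+ Wnt3a arrays and 8.92, 8.86 and 8.98 on Tcf3+/+ control arrays. Wnt3a and control arrays overlapped in Tcf3-/- cells, and the changes of 0.27 there and 0.17 in Tcf3+/+ cells did not pass (adjusted p = 0.155 and 0.325).

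Ebp, the sterol isomerase that moves a ring double bond late in the pathway, was high in Tcf3-/- cells. It measured 10.96, 10.89 and 10.84 on Tcf3-/- Wnt3a arrays, 11.14, 10.99 and 11.21 on Tcf3-/- control arrays, 10.40, 10.40 and 10.42 on Tcf3+/+ Wnt3a arrays and 9.86, 9.83 and 9.89 on Tcf3+/+ control arrays. The 4 groups did not overlap. In control medium it was 2.39-fold higher in Tcf3-/- cells (log2 1.26, SE 0.07, adjusted p = 2.10e-07), the largest change among the 32, and with Wnt3a 1.40-fold higher (log2 0.49, adjusted p = 0.000251). Wnt3a raised it by 0.55 in Tcf3+/+ cells (SE 0.07, adjusted p = 8.97e-05). In Tcf3-/- cells it fell by 0.22 (adjusted p = 0.0273), a call lost without Tcf3-/- control array 1 or 3 or without Tcf3-/- Wnt3a array 2 or 3 (adjusted p between 0.0757 and 0.118), with median centring (0.105) and with only the 6 arrays compared (0.0769).

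Sc5d, the enzyme that introduces a double bond after Ebp, went the other way in Tcf3+/+ cells. It gave 9.23, 9.44 and 9.56 on Tcf3-/- Wnt3a arrays, 9.77, 9.47 and 9.65 on Tcf3-/- control arrays, 9.72, 9.56 and 9.39 on Tcf3+/+ Wnt3a arrays and 10.11, 9.96 and 10.04 on Tcf3+/+ control arrays. The Tcf3+/+ control arrays were above all others. It fell with Wnt3a in Tcf3+/+ cells by 0.48 (SE 0.11, adjusted p = 0.00463), with all 3 of its probe sets lower, and was lower in Tcf3-/- than Tcf3+/+ control cells, at -0.41 (SE 0.11, adjusted p = 0.00966), with 1 of 3.

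**Figure D2:**
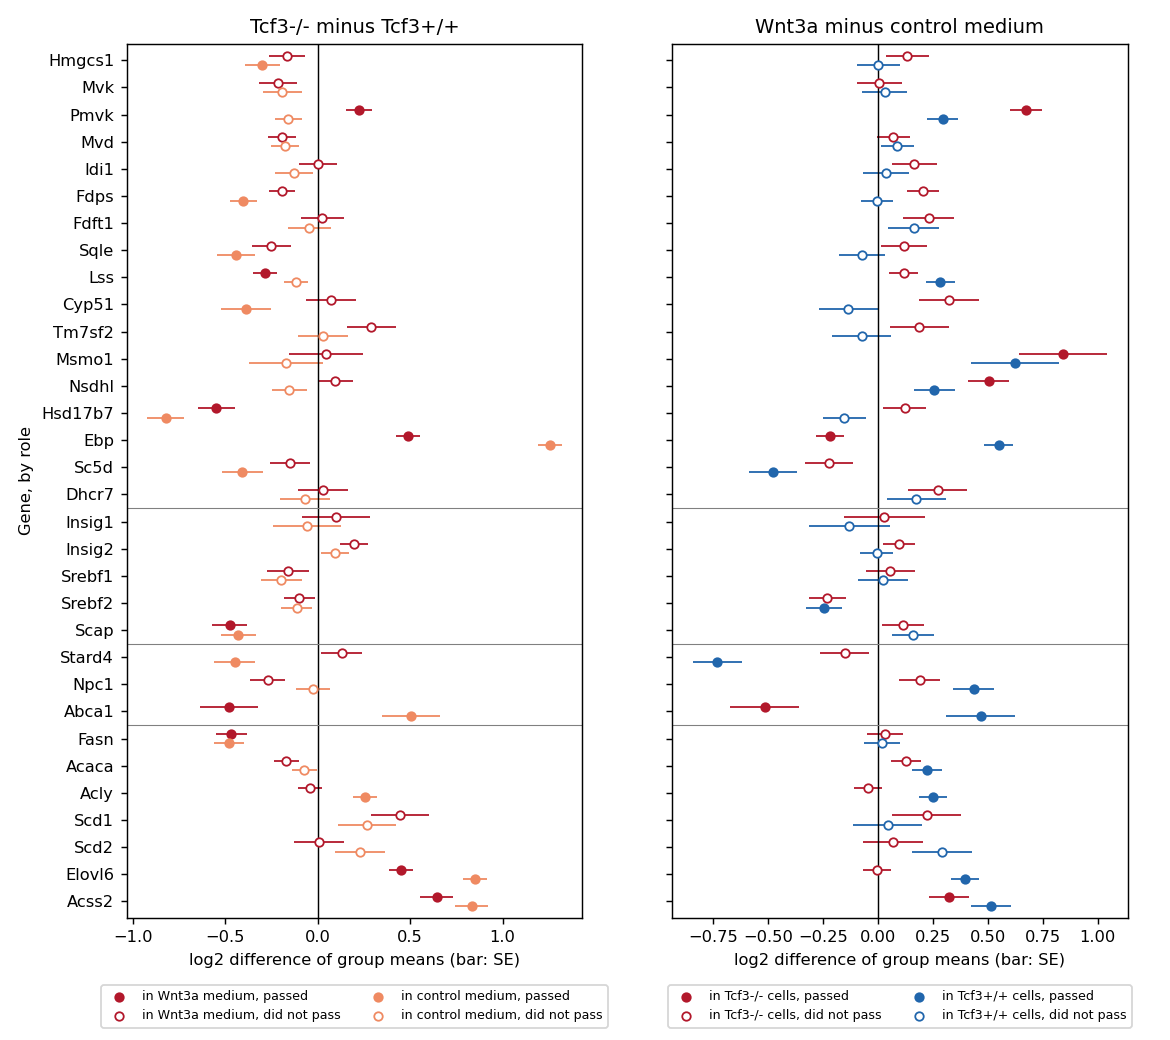
Change of each of the 32 genes on the log2 scale with its SE, between genotypes (left) and between media (right); filled points passed at adjusted p below 0.05. In control medium most cholesterol synthesis genes lie left of 0 and Ebp stands at 1.26, and Abca1 lies on opposite sides of 0 for Wnt3a in Tcf3-/- (-0.52) and Tcf3+/+ (0.47) cells.

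The regulators moved little as a group: Scap passed between genotypes in both media, Srebf2 passed with Wnt3a in Tcf3+/+ cells, and Srebf1, Insig1 and Insig2 passed nowhere. Scap, the SREBP escort, measured 9.76, 9.56 and 9.51 on Tcf3-/- Wnt3a arrays and 9.62, 9.33 and 9.54 on Tcf3-/- control arrays. In Tcf3+/+ cells it measured 10.17, 10.10 and 9.98 with Wnt3a and 9.84, 10.01 and 9.94 in control medium. All 6 Tcf3-/- arrays lay below all 6 Tcf3+/+ arrays. It was lower in Tcf3-/- cells by 1.35-fold in control medium (adjusted p = 0.00288) and by 1.39-fold with Wnt3a (adjusted p = 0.00304), and the first fell just short with the mean of its 2 probe sets (-0.20, adjusted p = 0.0509).

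Srebf2, which drives mainly sterol genes, gave 9.68, 9.66 and 9.78 on Tcf3-/- Wnt3a arrays, 9.93, 9.91 and 9.97 on Tcf3-/- control arrays, 9.86, 9.71 and 9.84 on Tcf3+/+ Wnt3a arrays and 10.24, 9.90 and 10.01 on Tcf3+/+ control arrays. Wnt3a arrays lay below control arrays in both genotypes. The change was -0.25 in Tcf3+/+ cells (adjusted p = 0.0331) and -0.23 in Tcf3-/- cells (adjusted p = 0.0573). Its 2 probe sets point in opposite directions in Tcf3+/+ cells, the dimmer at 0.32 (adjusted p = 0.0532), and their mean turned the sign to 0.04 in Tcf3+/+ and 0.05 in Tcf3-/- cells. The Tcf3+/+ call was also lost without Tcf3+/+ control array 1 or 3 or Tcf3+/+ Wnt3a array 2 or 3 (adjusted p between 0.0559 and 0.127), with median centring (0.125) and with only the 6 arrays compared (0.0832). Without Tcf3+/+ control array 1 the change was -0.15. The Tcf3-/- change passed under 7 alternatives (adjusted p between 0.0217 and 0.0499), among them those without Tcf3+/+ control array 1 or 2.

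Srebf1, which drives mainly fatty acid genes, measured 9.38, 9.67 and 9.82 on Tcf3-/- Wnt3a arrays and 9.68, 9.35 and 9.66 on Tcf3-/- control arrays, with 9.75, 9.86 and 9.73 on Tcf3+/+ Wnt3a arrays and 9.75, 9.73 and 9.80 on Tcf3+/+ control arrays. The low values were 1 array in each Tcf3-/- group, and the changes between genotypes were -0.19 in control medium (adjusted p = 0.194) and -0.16 with Wnt3a (adjusted p = 0.327). Insig1, the feedback brake and itself an SREBP target, gave 8.83, 9.27 and 9.86 on Tcf3-/- Wnt3a arrays, 9.32, 9.23 and 9.33 on Tcf3-/- control arrays, 9.26, 9.24 and 9.15 on Tcf3+/+ Wnt3a arrays and 9.33, 9.33 and 9.39 on Tcf3+/+ control arrays. The lowest and the highest value both fell in the first group. Its group means differed by at most 0.13. Insig2, its relative, which SREBP does not induce, gave 9.45, 9.42 and 9.32 on Tcf3-/- Wnt3a arrays, 9.35, 9.28 and 9.27 on Tcf3-/- control arrays, 9.31, 9.26 and 9.04 on Tcf3+/+ Wnt3a arrays and 9.23, 9.16 and 9.23 on Tcf3+/+ control arrays. The Tcf3-/- arrays were the higher in each medium, by 0.20 with Wnt3a (adjusted p = 0.0697) and 0.09 in control medium (adjusted p = 0.348).

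Of the sterol transport genes, Abca1 had Wnt3a calls of opposite direction in the genotypes, as Ebp had. Abca1, the pump that exports cholesterol to apolipoprotein A-I, measured 9.28, 9.02 and 8.55 on Tcf3-/- Wnt3a arrays, 9.48, 9.28 and 9.65 on Tcf3-/- control arrays, 9.38, 9.40 and 9.52 on Tcf3+/+ Wnt3a arrays and 8.82, 9.12 and 8.96 on Tcf3+/+ control arrays. The groups of each medium pair were separate in Tcf3+/+ cells, and in Tcf3-/- cells the highest Wnt3a array met the lowest control array. Wnt3a changed it by -0.52 in Tcf3-/- cells (SE 0.16, adjusted p = 0.0297) and by 0.47 in Tcf3+/+ cells (SE 0.16, adjusted p = 0.0320). Between genotypes it was higher in Tcf3-/- control cells by 0.50 (adjusted p = 0.0218) and lower in Tcf3-/- Wnt3a cells, at -0.48 (adjusted p = 0.0395). All 3 probe sets rose in the control comparison and with Wnt3a in Tcf3+/+ cells, but only 1 of 3 fell with Wnt3a in Tcf3-/- cells, where the others changed by -0.15 and -0.03.

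Each Abca1 call was lost when any 1 of several arrays was left out, while the direction of change held. With 1 array left out, the change between genotypes in control medium ran between 0.41 and 0.60. That with Wnt3a in Tcf3+/+ cells ran between 0.39 and 0.55. In control medium the call was lost without array 1 or 3 of either genotype (adjusted p between 0.0550 and 0.0880). With Wnt3a in Tcf3+/+ cells it was lost without Tcf3+/+ control array 1 or 3 or any Tcf3+/+ Wnt3a array (0.0509 to 0.110), and in Tcf3-/- cells without Tcf3-/- control array 1 or 3 or Tcf3-/- Wnt3a array 2 or 3 (0.0577 to 0.115). Between genotypes with Wnt3a it was lost without any of 7 arrays: Tcf3+/+ control array 3, Tcf3-/- control array 1, any Tcf3+/+ Wnt3a array, or Tcf3-/- Wnt3a array 2 or 3 (0.0529 to 0.125). Without Tcf3-/- Wnt3a array 3 the change was -0.28 between genotypes with Wnt3a and -0.32 with Wnt3a in Tcf3-/- cells. With the mean of all probe sets these were -0.32 (adjusted p = 0.167) and -0.23 (adjusted p = 0.306), and in the fit of all probe sets none of the 3 passed between genotypes with Wnt3a, the brightest at adjusted p = 0.0515.

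Stard4, a soluble carrier of cholesterol within the cell, measured 8.33, 8.72 and 8.88 on Tcf3-/- Wnt3a arrays, 8.88, 8.71 and 8.80 on Tcf3-/- control arrays, 8.52, 8.53 and 8.48 on Tcf3+/+ Wnt3a arrays and 9.26, 9.25 and 9.23 on Tcf3+/+ control arrays. The Tcf3+/+ control arrays were clearly the highest. It fell with Wnt3a in Tcf3+/+ cells by 0.73 (SE 0.11, adjusted p = 0.000405) and was lower in Tcf3-/- than in Tcf3+/+ control cells, at -0.45 (SE 0.11, adjusted p = 0.00614), with all 3 probe sets lower in both. Its Wnt3a change in Tcf3-/- cells did not pass, nor did the difference of the responses, 0.58 (adjusted p = 0.0618). Npc1, which releases cholesterol from lysosomes, averaged 8.17 ± 0.12 with Wnt3a and 7.74 ± 0.12 in control medium in Tcf3+/+ cells (SD, n = 3 each) and rose there by 1.35-fold (adjusted p = 0.00342).

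Fatty acid genes divided. Acss2, which makes acetyl-CoA from acetate, measured 8.31, 8.42 and 8.56 on Tcf3-/- Wnt3a arrays, 8.30, 8.07 and 7.95 on Tcf3-/- control arrays, 7.78, 7.84 and 7.74 on Tcf3+/+ Wnt3a arrays and 7.33, 7.21 and 7.29 on Tcf3+/+ control arrays. All 6 Tcf3-/- arrays lay above all 6 Tcf3+/+ arrays. It was 1.78-fold higher in Tcf3-/- control cells (adjusted p = 1.82e-05) and 1.56-fold higher with Wnt3a (adjusted p = 0.000348), and it rose with Wnt3a by 0.51 in Tcf3+/+ cells (adjusted p = 0.00101) and by 0.32 in Tcf3-/- cells (adjusted p = 0.0205). With the mean of its 3 probe sets the genotype change in control medium was 0.53 rather than 0.83 (adjusted p = 0.000483), and both rises missed the threshold (0.20 and 0.15, adjusted p = 0.0995 and 0.225), and the Tcf3-/- rise was lost without array 2 or 3 of either Tcf3-/- group (0.0541 to 0.0930).

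Elovl6, the elongase that takes palmitate to stearate, measured 11.67, 11.65 and 11.66 on Tcf3-/- Wnt3a arrays and 11.75, 11.56 and 11.69 on Tcf3-/- control arrays. Tcf3+/+ arrays were lower, at 11.13, 11.20 and 11.30 with Wnt3a and 10.82, 10.80 and 10.83 in control medium. The Tcf3-/- groups overlapped by this probe set, and the dimmest of the 3 fell with Wnt3a there by 0.52, while Wnt3a raised the Tcf3+/+ cells by 0.40 (SE 0.06, adjusted p = 0.000663). Elovl6 was 1.81-fold higher in Tcf3-/- control cells (adjusted p = 1.42e-06), with 3 of 3 probe sets higher, and 1.37-fold higher with Wnt3a (adjusted p = 0.000402), where the mean of its probe sets changed by 0.28 rather than 0.45 (adjusted p = 0.0333).

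Fasn, which builds palmitate, ran against both of these. It measured 10.90, 11.05 and 11.23 on Tcf3-/- Wnt3a arrays and 11.08, 10.93 and 11.09 on Tcf3-/- control arrays, against 11.53, 11.49 and 11.57 on Tcf3+/+ Wnt3a arrays and 11.54, 11.48 and 11.51 on Tcf3+/+ control arrays. Again the genotypes were separate on all 12 arrays, with Tcf3-/- cells lower by 1.39-fold in control medium (adjusted p = 0.000530) and by 1.38-fold with Wnt3a (adjusted p = 0.00140). Acly, which makes cytosolic acetyl-CoA from citrate, was higher in Tcf3-/- control cells by 0.25 (adjusted p = 0.00679) and with Wnt3a in Tcf3+/+ cells by 0.25 (adjusted p = 0.00904), the Wnt3a call being lost under repeated quantile normalization (0.14, adjusted p = 0.0789). Of its other probe sets, 2 rose more in these comparisons, by 0.60 and 0.44 between genotypes and by 0.84 and 0.42 with Wnt3a. The first of these also rose with Wnt3a in Tcf3-/- cells by 0.32 (adjusted p = 0.0110) and passed for the difference of the responses at -0.52 (adjusted p = 0.0324). Acly was called for that difference when probe sets were averaged and under the intensity-dependent prior, though not by its brightest probe set in the main setting. Acaca, which makes malonyl-CoA, rose with Wnt3a in Tcf3+/+ cells by 0.22 (adjusted p = 0.0213), and its dimmer probe set gave a larger rise, so that the mean of both rose by 0.65. That dimmer probe set also rose with Wnt3a in Tcf3-/- cells, by 0.53. The call on the brighter probe set was lost under repeated quantile normalization (0.0932) and without Tcf3+/+ control array 2 or 3 or Tcf3+/+ Wnt3a array 1 or 2 (0.0534 to 0.0779).

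The desaturases, which introduce the first double bond, did not pass by their brightest probe sets. Scd1 measured 9.52, 9.97 and 10.34 on Tcf3-/- Wnt3a arrays, 9.81, 9.62 and 9.73 on Tcf3-/- control arrays, 9.50, 9.38 and 9.60 on Tcf3+/+ Wnt3a arrays and 9.51, 9.35 and 9.49 on Tcf3+/+ control arrays. Its difference of 0.45 between genotypes with Wnt3a missed the threshold (adjusted p = 0.0521). It passed under 5 alternatives, among them that without Tcf3-/- Wnt3a array 1 (0.66, adjusted p = 0.00164). It was 0.25 without array 3 of that group (adjusted p = 0.172) and 0.18 with the mean of its probe sets (adjusted p = 0.403). The dimmer probe set of Scd1 changed by -0.09 in this comparison (adjusted p = 0.768). Scd2 measured 12.82, 13.05 and 13.13 on Tcf3-/- Wnt3a arrays, 12.95, 12.92 and 12.94 on Tcf3-/- control arrays, 13.00, 13.04 and 12.94 on Tcf3+/+ Wnt3a arrays and 13.04, 12.36 and 12.72 on Tcf3+/+ control arrays. The Tcf3+/+ control arrays spread widely, and the changes of 0.23 in Tcf3-/- control cells and 0.29 with Wnt3a in Tcf3+/+ cells did not pass (adjusted p = 0.202 and 0.108). Its 2 dimmer probe sets rose in both comparisons, by 0.54 and 0.67 between genotypes and by 0.72 and 1.14 with Wnt3a. Both changes turned on the Tcf3+/+ control arrays. They were 0.40 and 0.46 without array 1, where they passed (adjusted p = 0.0161 and 0.0102), and 0.06 and 0.12 without array 2, the lowest (adjusted p = 0.717 and 0.414).

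**Figure D3:**
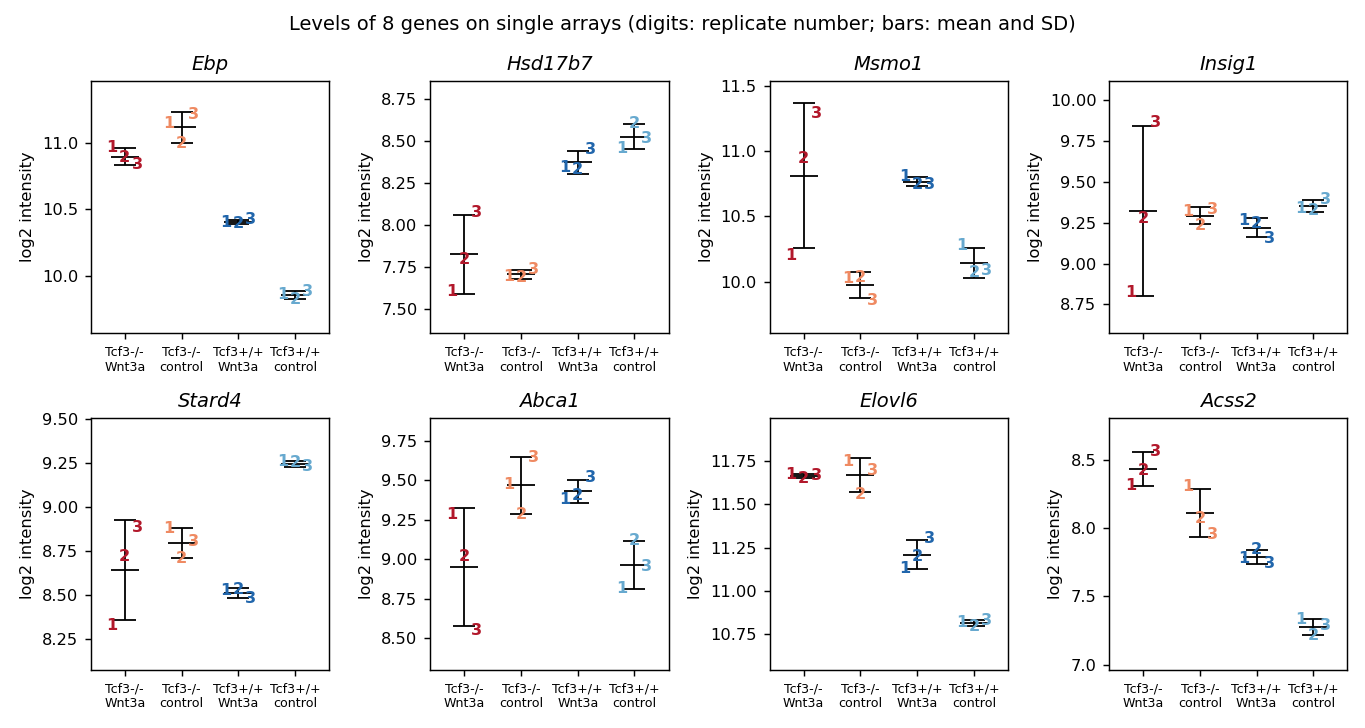
Log2 intensity of 8 genes on each array (digits give the replicate number) in the 4 groups, with group mean and SD. Ebp, Elovl6 and Acss2 are lowest in Tcf3+/+ control cells, Stard4 is highest there, and Msmo1, Insig1 and Abca1 spread widely among the 3 Tcf3-/- Wnt3a arrays.

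Whether Wnt3a acted differently in the 2 genotypes was tested by the difference of the responses. Of the 32 genes 3 passed, all with a lower response in Tcf3-/- cells, 9.38% against 4.08% of all genes tested (2.20% higher, 1.88% lower). The difference was -0.77 for Ebp (SE 0.09, adjusted p = 0.00271), -0.40 for Elovl6 (SE 0.09, adjusted p = 0.0357) and -0.98 for Abca1 (SE 0.22, adjusted p = 0.0337). In Ebp and Elovl6 the Tcf3-/- control arrays already lay above the Tcf3+/+ Wnt3a arrays. The Ebp result passed under all alternatives run. In the fit of all probe sets, 1 of 3 passed for Elovl6 and 1 of 3 for Abca1. The Elovl6 call was lost without array 1 or 3 of either control group or array 2 or 3 of either Wnt3a group (adjusted p between 0.0610 and 0.0900). The Abca1 call was lost without array 1 or 3 of either control group, Tcf3+/+ Wnt3a array 2 or 3 or Tcf3-/- Wnt3a array 2 (0.0642 to 0.0893). With 1 array left out, the differences ran between -0.45 and -0.36 for Elovl6 and between -1.15 and -0.78 for Abca1. Over all genes, 151 to 952 then passed, against 563 with every array. Without Tcf3-/- Wnt3a array 1, Pmvk, Stard4 and Cyp51 passed as well, with a higher response in Tcf3-/- cells.

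The 3 Tcf3-/- Wnt3a arrays differed from each other in these genes more than the arrays of any other group did. This was noticed after the values were seen and is given as a description. Array 1 was the lowest and array 3 the highest for 23 of the 32 genes (71.9%), against 27.3% of all genes tested, and for 14 of the 17 cholesterol synthesis genes (82.4%). The median over genes of array 3 minus array 1 was 0.33 for the 32 genes and 0.43 for cholesterol synthesis, against -0.0072 for all genes. Msmo1, Insig1, Scd1, Tm7sf2 and Dhcr7, whose values stand above, spanned 0.71 to 1.09, and Abca1 spanned 0.73 the other way, with array 1 highest. Ebp, Elovl6, Acaca, Fdps, Lss, Acly, Srebf2 and Insig2 spanned no more than 0.13.

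The median SD over the 32 genes was 0.189 in this group, 0.0724 in Tcf3-/- control cells, 0.0700 in Tcf3+/+ cells with Wnt3a and 0.0580 in Tcf3+/+ control cells. Over all genes tested it was 0.0965, 0.0884, 0.0928 and 0.0899 in the same groups, so the 32 genes were the more variable in Tcf3-/- Wnt3a cells and the less variable elsewhere. An SD above the 90th percentile of all genes was seen for 12 of the 32 (37.5%) in this group and for at most 1 in each of the others. The 3 arrays had median intensities of 70.1, 68.7 and 68.3, actin 3′ to 5′ differences of 0.41, 0.36 and 0.38, summed stem cell markers of 105054, 108290 and 110782 and summed endoderm markers of 1306, 1437 and 1470. The part of these in the spread was not tested. Without array 1, Wnt3a raised 10 of the 32 genes in Tcf3-/- cells rather than 4, adding Scd1, Fdft1, Dhcr7, Cyp51, Idi1 and Tm7sf2, and 8 rather than 4 were higher in Tcf3-/- than in Tcf3+/+ cells with Wnt3a. Over all 13811 genes, those raised by Wnt3a in Tcf3-/- cells numbered 1784 rather than 1840. Those higher in Tcf3-/- than in Tcf3+/+ cells with Wnt3a numbered 1710 rather than 1828. Without array 3, Wnt3a raised 3 and lowered none. The same was found without array 2 of this group or without Tcf3-/- control array 3, so it was not particular to array 3. Over all genes, 3872 passed for Wnt3a in Tcf3-/- cells with every array. Without array 3, array 2 or that control array, 3081, 2600 and 2393 passed. Without array 3, 8 rather than 5 of the 32 genes were lower in Tcf3-/- than in Tcf3+/+ cells with Wnt3a. This added Sqle, Mvk, Hmgcs1 and Mvd and lost Abca1. Over all genes, 3268 rather than 3863 passed in that comparison.

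**Figure D4:**
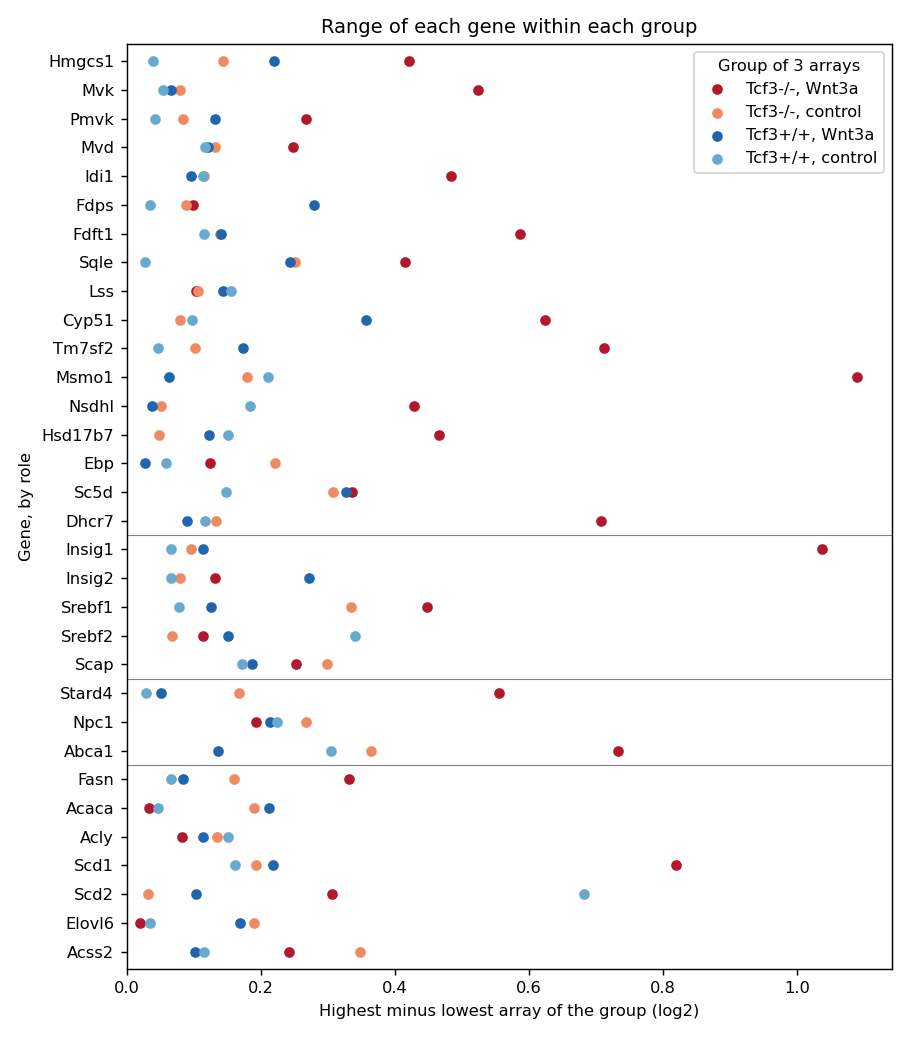
Highest minus lowest of the 3 arrays of each group (log2) for the 32 genes. The Tcf3-/- Wnt3a group has the widest range for most genes, up to 1.09 for Msmo1 and 1.04 for Insig1, and is narrow for Elovl6 and Acaca.

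In the Tcf3-/- control group, array 2 was the lowest for 25 of the 32 genes (78.1%), against 47.1% of all genes tested. This is the array with the high endoderm markers and an actin difference of 0.41, and the part of either was not tested. Without it 7 of the 32 genes fell and 5 rose between genotypes in control medium, with Hmgcs1 and Cyp51 no longer passing. Over all 13811 genes, 5220 rather than 5824 then passed, with 2584 rather than 2743 higher. The loss of the Hmgcs1 and Cyp51 calls was not particular to array 2. The same 7 genes fell without Tcf3-/- control array 3 or without any of the Tcf3+/+ control arrays. By group mean, Tcf3-/- control cells were the lowest of the 4 groups for 19 of the 32 genes, and Tcf3-/- Wnt3a cells the highest for 11.

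Other genes of lipid metabolism, taken from lists, were set beside these. Of 25 further genes of fatty acid and glyceride synthesis, 10 fell and 1 rose in Tcf3-/- control cells, with a median of -0.12 against 0.01 over all genes, where 22.3% of all genes fell and 19.9% rose. The largest falls were those of Elovl1, an elongase of very long chains (-1.11, adjusted p = 8.16e-07), Hacd1, a dehydratase of the elongation cycle (-0.98, adjusted p = 5.54e-06), and Fads3 (-0.88, adjusted p = 2.72e-05). With Wnt3a, 7 rose and 3 fell in Tcf3-/- cells (all genes 13.3% and 14.7%), and 4 rose and 7 fell in Tcf3+/+ cells (all genes 18.9% and 22.6%). Elovl5, which elongates polyunsaturated chains, rose in both, by 0.48 in Tcf3-/- and 0.43 in Tcf3+/+ cells (adjusted p = 0.000421 and 0.000319).

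Fatty acid oxidation is the opposite route. Of its 11 genes, 5 rose and 1 fell in Tcf3-/- control cells, with a median change of 0.11 (all genes 19.9% higher, 22.3% lower). With Wnt3a 4 were higher and none lower in Tcf3-/- than in Tcf3+/+ cells, with a median of 0.21 (all genes 13.2% and 14.7%). Wnt3a raised 5 and lowered none in Tcf3-/- cells, with a median of 0.27 (all genes 13.3% and 14.7%), and raised 4 and lowered 1 in Tcf3+/+ cells, with a median of 0.22 (all genes 18.9% and 22.6%). Cpt1a, which admits fatty acids to mitochondria, averaged 9.68 in Tcf3-/- and 8.31 in Tcf3+/+ control cells, 2.59-fold higher (adjusted p = 2.99e-05), and was 2.35-fold higher with Wnt3a in Tcf3+/+ cells (adjusted p = 0.000152). Acaa2, the mitochondrial thiolase, was 1.77-fold higher in Tcf3-/- control cells (adjusted p = 0.000472), and Hadha, of the trifunctional protein, 1.59-fold (adjusted p = 2.76e-05).

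Of 14 genes of sterol uptake, efflux and esterification, 5 rose and 4 fell in Tcf3-/- control cells, with a median of -0.06 (all genes 19.9% higher, 22.3% lower), and 3 had a higher Wnt3a response in Tcf3-/- than in Tcf3+/+ cells, with a median difference of 0.09 (all genes 2.20% higher, 1.88% lower). Lrp8, a lipoprotein receptor, averaged 6.89 in Tcf3-/- and 8.15 in Tcf3+/+ control cells (-1.26, adjusted p = 8.17e-05), rose with Wnt3a by 1.03 in Tcf3-/- cells (adjusted p = 0.00125) and differed in response by 1.17 (adjusted p = 0.0233). Lipa, the lysosomal lipase, fell in Tcf3-/- control cells by 0.84 (adjusted p = 3.26e-05). Mylip, the ligase that degrades lipoprotein receptors, fell with Wnt3a in Tcf3+/+ cells by 0.52 (adjusted p = 0.000716). Abcg1, an exporter that acts beside Abca1, fell with Wnt3a in Tcf3-/- cells by 0.58 (adjusted p = 0.00669).

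In the isoprenoid branch, which draws on farnesyl pyrophosphate, 3 of 9 genes rose and 2 fell in Tcf3-/- control cells, with a median of 0.06 (all genes 19.9% and 22.3%). Coq2, for ubiquinone, changed by -0.81 (adjusted p = 5.08e-06), Fntb, a farnesyltransferase subunit, by 0.70 (adjusted p = 8.33e-05), and Ggps1, which makes geranylgeranyl pyrophosphate, by 0.51 (adjusted p = 0.000194). Of 10 genes of SREBP processing and degradation, 2 rose and 3 fell there, with a median of -0.16, and none rose and 3 fell with Wnt3a in Tcf3+/+ cells, with a median of -0.08 (all genes 18.9% and 22.6%). Spring1, a cofactor of the protease that cuts SREBP, was lower in Tcf3-/- control cells by 1.33-fold (adjusted p = 0.000546) and lower with Wnt3a in Tcf3+/+ cells by 1.47-fold (adjusted p = 0.000133).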

How the data were processed

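Total RNA of the 12 samples was hybridised to Affymetrix arrays. The authors deposited 1 table of intensity values for 45101 probe sets, on a linear scale. Per the submitters' processing notes they used RMA, whose version and settings the sources do not state. Log2 was taken with no pseudocount. Probe sets were named by the platform annotation: 64 are array controls, 34945 carry 1 symbol (18193 genes), 932 several and 9160 none. RefSeq held 18032 of their 18194 Entrez identifiers.

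Each gene was represented by its probe set of highest mean and kept if 3 or more arrays exceeded the 40th percentile (log2 5.56, intensity 47.2). Groups, taken from the labels, entered 1 limma model (version 3.58.1, R 4.3.3, lmFit and eBayes) over all 12 arrays, with Benjamini-Hochberg adjustment and a threshold of 0.05. Probe sets were fitted likewise, without filter. The fit was tested on simulated data. The arrays' number limits the precision. Alternatives changed probe set choice, filter, scaling, prior, arrays fitted, a replicate block and each array in turn. The 33 members and all lists were chosen with earlier results of these data known. Values on every array are given for the 6 called members with the largest change in each comparison, for Srebf1, Srebf2, Insig1 and Insig2 and for the 2 largest uncalled changes of each comparison, and of other lists up to 3 called genes per comparison are named.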

Additional observations from a re-analysis of the deposited data

Results flagged for a closer look

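The response to Wnt3a differed between Tcf3-/- and Tcf3+/+ cells, by a test of the difference itself, for Ebp (-0.77), Elovl6 (-0.40) and Abca1 (-0.98 on the log2 scale). In the fit of all probe sets, the only probe set of Ebp passed, and 1 of 3 for Elovl6 and for Abca1. The Ebp call held under every alternative. Those of Elovl6 and Abca1 were lost under several, among them the replicate block (adjusted p = 0.0563 and 0.0608). The dap control RNA, which belongs to no comparison, was well above background on every Wnt3a array, with a lowest value of 11.07, against 4.04 to 4.15 on control arrays.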

How the results depend on the processing

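Of 46 member results that passed, 25 kept their call under each of the 8 alternatives that leave out no array and the 12 that leave out 1, and 21 lost it under at least 1. Of 917 values recomputed for them, 803 kept direction and call, 113 lost the call and 1 turned its sign. Of 30 results followed that did not pass, 20 changed call or sign under at least 1. The cause was not tested. With 1 array left out, the genes higher and lower numbered 4 to 6 and 7 to 10 between genotypes in control medium, 3 to 8 and 4 to 8 between genotypes with Wnt3a, 7 to 11 and 2 to 3 with Wnt3a in Tcf3+/+ cells, 3 to 10 and 0 to 3 with Wnt3a in Tcf3-/- cells, and 0 to 3 and 1 to 3 for the difference of responses. Over all genes, those passing with 1 array left out numbered 4778 to 5951, 2813 to 3959, 4259 to 5921, 2393 to 4011 and 151 to 952 in the same order. Repeated quantile normalization left 7 of the members higher with Wnt3a in Tcf3+/+ cells and 2 with a higher response in Tcf3-/- cells. That last count was 1 with the mean of all probe sets, the stricter filter or the intensity-dependent prior. Genes lower with Wnt3a in Tcf3-/- cells numbered 1 with the mean of all probe sets, median centring or only the arrays compared. Median centring raised the share of all called genes that were higher to 61.4% (main setting 45.6%) with Wnt3a in Tcf3+/+ cells and to 66.2% (main setting 47.5%) in Tcf3-/- cells.

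Same-numbered arrays showed no clear shared deviation. Over 18 such pairs, deviations from group means correlated between -0.26 and 0.24 (median -0.0092), against -0.30 to 0.34 for other numbers. The labels do not say whether same-numbered samples were prepared together, and these correlations cannot decide it. With the replicate block, 1 gene had a lower response in Tcf3-/- cells, and 394 rather than 563 of all genes passed that test. The difference of responses was not run with only the arrays compared, since it uses all 12.

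Some small changes that had not passed turned their sign. With 1 array left out, that of Insig1 ran between -0.17 and 0.349 between genotypes with Wnt3a, between -0.243 and 0.276 with Wnt3a in Tcf3-/- cells (-0.00500 under repeated quantile normalization), and between -0.112 and 0.407 for the difference of responses. Insig2 with Wnt3a in Tcf3+/+ cells ran between -0.0603 and 0.0759 (0.0656 with median centring). Srebf1 ran between -0.0188 and 0.0443 with Wnt3a in Tcf3+/+ cells (-0.0511 under repeated quantile normalization), between -0.0525 and 0.179 in Tcf3-/- cells and between -0.0730 and 0.158 for the difference. Srebf2 ran between -0.0804 and 0.0899 for the difference. With the mean of its probe sets Srebf2 changed by 0.0350 with Wnt3a in Tcf3+/+ cells, where the main value had passed, and by 0.0472 in Tcf3-/- cells. None of these turned values passed.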
